A study of Homo sapiens with 6 samples.

Results

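The imprinted DLK1-DIO3 miRNA cluster of human chromosome band 14q32 was examined in A549 cells, a human lung adenocarcinoma line, after depletion of APE1, the endonuclease of base excision repair. Its members were chosen by name, as the probes of the panel whose miRNA numbers belong to the cluster. The naming rule used no measured value, but it was set with earlier results of these data known. There were 72 such probes among the 798 human miRNA probes of the panel. The siAPE1 group held 3 RNA samples of cells transfected for 72 h with 100 pmol of an siRNA directed at APE1, and the siSCR group held 3 RNA samples of cells transfected for the same time with the same amount of a scramble siRNA. The transfections were transient, each siRNA was 1 sequence, and the labels name no other change to the cells. Levels were read on the human v3 miRNA panel of the nCounter system, where tagged molecules are counted by barcoded probes and are not amplified. The comparison addresses which miRNAs differ when APE1 is depleted. APE1 mRNA has no probe there, and its loss could not be read from these libraries.

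The DLK1-DIO3 domain is imprinted. Its protein-coding genes DLK1, RTL1 and DIO3 are expressed from the paternal chromosome, while its long non-coding RNAs and all of its miRNAs are expressed from the maternal chromosome. The miRNAs are cut as hairpins from long precursor transcripts by Drosha and then by Dicer, and 1 arm of each hairpin (5p or 3p) usually accumulates as the mature miRNA. Bases 2 to 8 of the mature miRNA, the seed, pair with target mRNAs, so miRNAs with the same seed share many predicted targets. The cluster is known for high expression in embryo, placenta and brain and for low expression in most adult tissues. In mice, loss of the miR-379/miR-410 group impairs the metabolic adaptation of newborns.

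All 72 probes matched RefSeq miRNAs, from 51 precursors, and all lie on the plus strand of chromosome 14 (GRCh38.p14) between positions 100852409 and 101066786, a span of 214 kb. They form 2 groups separated by 111 kb. The upstream group (miR-770 to miR-370, 14 probes) spans 58.8 kb, and the downstream miR-379/miR-410 group (58 probes) spans 44.7 kb. Of the 14 upstream probes, 7 lie within RTL1, which is annotated on the opposite strand, 1 within the non-coding gene MEG3 and 2 within the non-coding gene MEG8. In the downstream group, 9 probes lie within the non-coding host gene MIR381HG. By name, 30 probes are for 5p arms, 35 for 3p arms and 7 carry no arm suffix.

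The mature sequences below (RefSeq, GRCh38.p14, plus strand, written 5′ to 3′, seed in capitals) are those on which the later comparisons turn. The first set holds neighbours that differed from each other in their response, the single member that rose and the members with the largest falls.
miR-379-5p (chr14:101022071-101022091): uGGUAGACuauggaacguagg
miR-411-5p (chr14:101023340-101023360): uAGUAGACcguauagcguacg
miR-323a-3p (chr14:101025782-101025802): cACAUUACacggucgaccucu
miR-494-3p (chr14:101029681-101029702): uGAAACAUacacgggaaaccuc
miR-376c-3p (chr14:101039732-101039752): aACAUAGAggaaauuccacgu
miR-487b-3p (chr14:101046505-101046526): aAUCGUACagggucauccacuu
miR-136-5p (chr14:100884716-100884738): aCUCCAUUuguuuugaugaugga

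The second set holds tested members beside the cluster probe that shares the whole seed with them, and miR-487a-3p, which resembles miR-487b-3p. It is shown because only 1 probe of each pair was tested, although the seeds are the same or, for the miR-487 pair, differ by 1 base.
miR-376a-3p (first of 2 loci, chr14:101040118-101040138): aUCAUAGAggaaaauccacgu
miR-376b-3p (chr14:101040497-101040518): aUCAUAGAggaaaauccauguu
miR-381-3p (chr14:101045968-101045989): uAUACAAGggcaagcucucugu
miR-300 (chr14:101041414-101041435): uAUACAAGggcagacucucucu
miR-485-3p (chr14:101055464-101055485): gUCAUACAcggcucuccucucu
miR-539-3p (chr14:101047369-101047390): aUCAUACAaggacaauuucuuu
miR-487a-3p (chr14:101052494-101052515): aAUCAUACagggacauccaguu

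The third set is shown for a shared end outside the seed. Here the capitals mark the 12 bases, starting at position 11, that miR-543 and miR-495-3p have in common.
miR-543 (chr14:101032033-101032054): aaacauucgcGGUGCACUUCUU
miR-495-3p (chr14:101033804-101033825): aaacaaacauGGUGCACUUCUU

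The libraries held 312152 to 331524 counts in siAPE1 and 370087 to 488407 counts in siSCR. Levels are given as scaled counts, which are raw counts divided by a library factor from the positive controls and the housekeeping mRNAs. The background limit of a library was set 2 SD above the mean of its 8 negative controls, and a miRNA was tested when 3 or more of the 6 libraries exceeded their limit. The limits lay between 63.3 and 75.8 raw counts in siAPE1 and between 53.1 and 70.6 raw counts in siSCR. By this rule 152 miRNAs of the panel were tested and 646 were not. Of the markers of other cell types, 0 of 4 blood, 0 of 3 muscle and 0 of 4 mesenchymal markers were tested, with 1 blood marker above the limit in 1 library. Of 7 epithelial markers 1 was tested. Of 3 neural markers 2 were tested, of which miR-9-5p was lower in siAPE1, with 305 ± 64.2 scaled counts against 406 ± 19.7 in siSCR (SD, n = 3 each, edgeR adjusted p = 0.0281). Its part in the results below was not tested.

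Most of the cluster was at background in A549 cells. Of the 72 members, 18 were tested (25%), against 134 of the other 726 miRNAs (18.5%). A further 50 members did not exceed the limit in any library, and 4 exceeded it in 1 library. The tested members comprised 2 of the 14 upstream probes and 16 of the 58 downstream probes. The chromosome 19 cluster, the other large imprinted miRNA cluster, had 1 tested member of 41. All 72 members together made up 1.35% to 1.57% of the miRNA counts of the siAPE1 libraries and 1.58% to 1.63% of those of the siSCR libraries, background counts included.

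**Figure D1:**
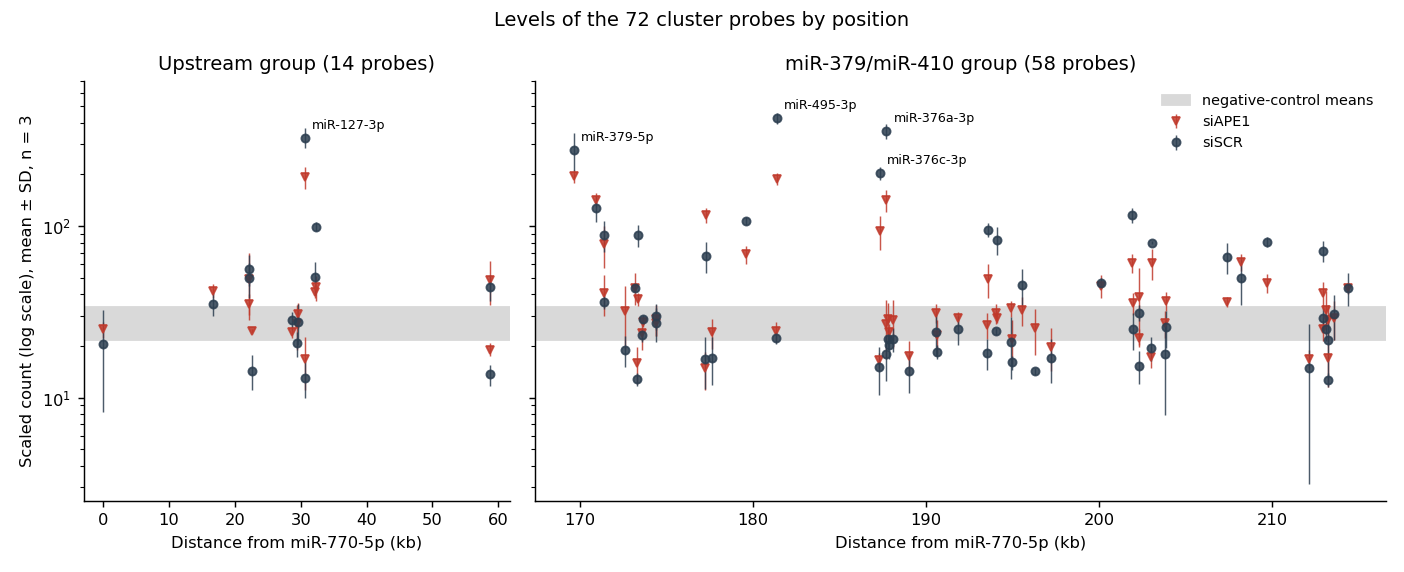
Mean scaled count (log axis, error bars SD, n = 3 libraries) of each of the 72 probes against its distance in kb from miR-770-5p, with siAPE1 as red triangles and siSCR as dark circles. The grey band spans the negative-control means of the 6 libraries, and the 5 members above 200 scaled counts in siSCR are named.

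The plot of levels by position shows that members above background were scattered among members at background in the downstream group. The 54 members that were not tested had group means of 14.8 to 61.9 scaled counts in siAPE1 and 12.7 to 56.2 in siSCR. Their median level was 27.7, 24.6 and 29.4 scaled counts in the siAPE1 libraries and 21.3, 21.3 and 25.5 in the siSCR libraries. These medians lie close to the negative-control means, which were 32.6, 29.5 and 33.6 scaled counts in siAPE1 and 21.7, 21.8 and 29.6 in siSCR. The scaled background was therefore higher in siAPE1 than in siSCR on average, and it is part of every level given here.

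With this scaling, 15 of the 18 tested members were lower in siAPE1, 1 was higher and 2 did not pass the threshold (edgeR quasi-likelihood test, adjusted p at most 0.1 over the 152 tested miRNAs). Falls were common across the panel, where 50.7% of tested miRNAs were called lower and 9.87% higher, 60.5% in all. The median log2 fold change was -0.83 over the tested members, beside -0.34 over all 152 tested miRNAs. With TMM, a scaling by the bulk of the miRNAs that moved the panel median to 0.02, 12 members were called lower and 2 higher, while the panel split into 46 lower and 47 higher against 77 lower and 15 higher with the housekeeping scaling. The siAPE1 levels lay under the siSCR levels without overlap for 15 members, where 52.6% of the tested panel did. The filter bears on these counts. Of the 18 tested members, 9 exceeded the limit in all 3 siSCR libraries and in none of the siAPE1 libraries, so they entered the test only through the group in which they were high. Only 9 of the 134 other tested miRNAs did so, and 18 of all 152. The filter thus weighs more on the cluster's calls and median than on the panel values set beside them. Among the 6 members above the limit in all 6 libraries, 4 were lower (miR-127-3p, miR-379-5p, miR-495-3p and miR-376a-3p), 1 was higher (miR-494-3p) and 1 was not called (miR-411-5p). Among the 123 miRNAs of the panel that met that stricter rule, 44.7% were lower and 10.6% higher. In these bulk samples, fewer cells that express a miRNA and less of it per cell cannot be told apart.

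**Figure D2:**
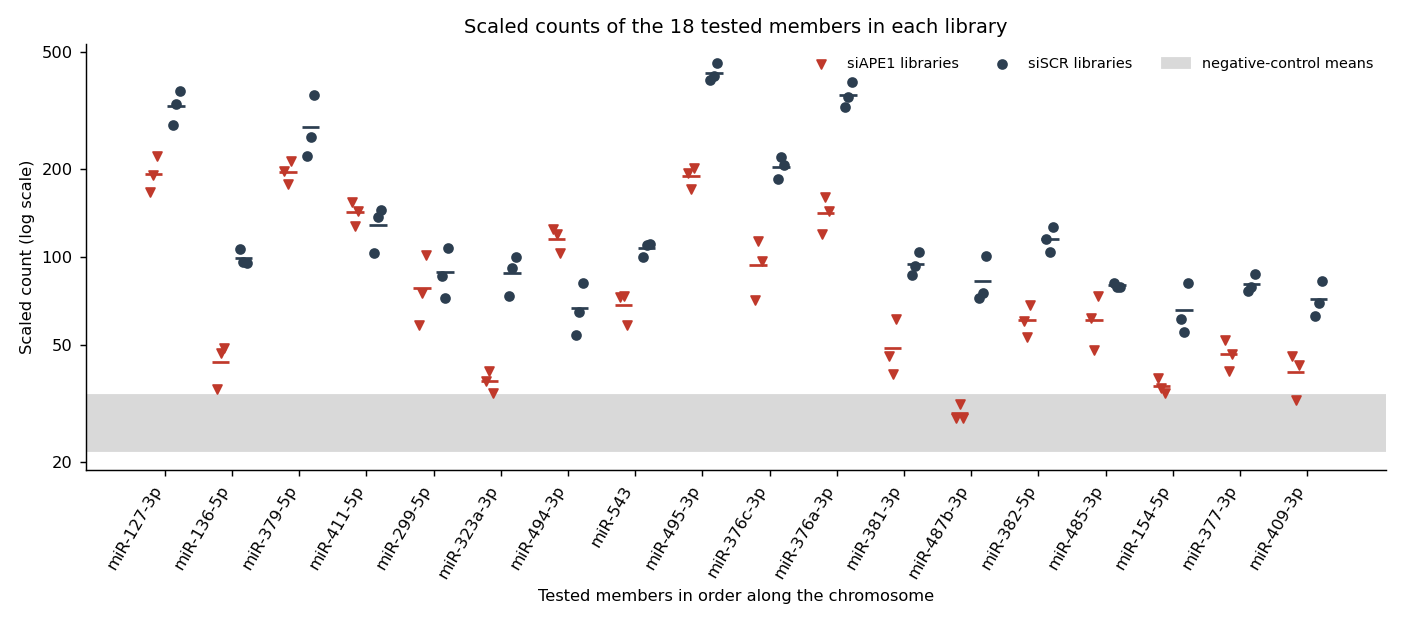
Scaled count (log axis) of the 18 tested members in each of the 3 siAPE1 libraries (red triangles, left) and 3 siSCR libraries (dark circles, right), in chromosomal order, with group means as short lines and the range of the negative-control means as a grey band. The groups do not overlap for 16 members, and only miR-494-3p lies higher in siAPE1.

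The members of the cluster that were most abundant in siSCR were lower in siAPE1. miR-495-3p, the highest of them in siSCR, had 193, 171 and 202 scaled counts in the siAPE1 libraries, against 402, 414 and 458 in the siSCR libraries. Every siAPE1 value was under every siSCR value by a wide margin, and the log2 fold change was -1.17 ± 0.17 (SE, edgeR adjusted p = 6.78e-10). It ranked 86 among the 798 probes by mean level in siAPE1 and 63 in siSCR. miR-376a-3p, made from 2 precursor genes and known to be edited by ADAR enzymes within its seed in human and mouse tissues, had 120, 160 and 143 scaled counts in siAPE1, against 326, 353 and 396 in siSCR. The group means were 141 ± 20.2 and 358 ± 35.3 (SD, n = 3 each), and the log2 fold change of -1.34 ± 0.17 was the largest fall among the members above the limit in all 6 libraries (adjusted p = 8.58e-13). Its relative miR-376c-3p had 71.0, 113 and 96.6 scaled counts in siAPE1, against 184, 220 and 206 in siSCR (log2 fold change -1.12 ± 0.19, adjusted p = 4.61e-08). The spread of miR-376c-3p among the siAPE1 libraries was wide, but its highest value there was still under the lowest in siSCR.

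miR-127-3p and miR-136-5p, which are encoded opposite RTL1, were the 2 tested members of the upstream group, and both were lower. miR-127-3p, known in human cells as a repressor of the proto-oncogene BCL6, had 166, 191 and 221 scaled counts in siAPE1, against 283, 332 and 369 in siSCR. The groups did not overlap, and the log2 fold change was -0.77 ± 0.17 (adjusted p = 2.91e-05). miR-136-5p lies 1.68 kb further on and had 35.5, 47.1 and 48.9 scaled counts in siAPE1, against 106, 96.2 and 95.0 in siSCR (log2 fold change -1.18 ± 0.18, adjusted p = 2.07e-09). All 3 siAPE1 values of miR-136-5p were within the background limit, whereas those in siSCR were all above it.

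The largest fall among all tested members was that of miR-487b-3p. It had 28.2, 31.4 and 28.1 scaled counts in siAPE1, against 72.7, 75.3 and 101 in siSCR. The siAPE1 values lay at the level of the negative controls, so the fitted log2 fold change of -1.48 ± 0.19 (adjusted p = 7.18e-13) compares a measured level with background. After subtraction of each library's negative-control mean its log2 difference was -2.68, on the scale of log2(value + 10). miR-323a-3p showed the same picture, with 37.6, 40.8 and 34.3 scaled counts in siAPE1, against 73.5, 91.7 and 99.6 in siSCR (log2 fold change -1.22 ± 0.18, adjusted p = 9.44e-10, and -2.29 after subtraction). Including these, 6 of the 18 members fell at least 2-fold past the threshold (miR-376a-3p, miR-376c-3p, miR-495-3p, miR-487b-3p, miR-136-5p and miR-323a-3p), where 9.21% of all tested miRNAs did. Of these 6, miR-136-5p, miR-323a-3p and miR-487b-3p were within the background limit in every siAPE1 library.

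Another 6 members were above the limit in the siSCR libraries only. miR-381-3p, miR-382-5p, miR-154-5p, miR-377-3p, miR-409-3p and miR-485-3p had siAPE1 means of 36.2 to 61.1 scaled counts and siSCR means of 65.9 to 115 scaled counts. For 5 of them the log2 fold change lay between -0.96 (miR-381-3p) and -0.79 (miR-377-3p), with adjusted p-values of 4.57e-05 or less. miR-409-3p, known to target the angiogenesis factor angiogenin in human cells, had 45.9, 32.5 and 42.8 scaled counts in siAPE1, against 62.9, 69.3 and 82.6 in siSCR (log2 fold change -0.82 ± 0.18). The groups of each of these 5 members were apart, but all 6 passed the filter through siSCR alone. Their siAPE1 values were within the background limit. The p-values therefore compare a level above the limit with one within it, and the direction is no separate support. miR-382-5p and miR-485-3p had the highest siAPE1 means (60.8 and 61.1 scaled counts), within the limit but well above the negative-control means.

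miR-485-3p was the weakest call. It had 61.6, 48.2 and 73.4 scaled counts in siAPE1, against 81.5, 79.0 and 79.2 in siSCR, so that the siSCR libraries were nearly alike and the siAPE1 libraries were not. Its log2 fold change was -0.40 ± 0.17 (adjusted p = 0.0422), and it no longer passed with TMM (adjusted p = 0.806) or without siAPE1 replicate 2 (adjusted p = 0.314). Nor did it pass with DESeq2 size factors (adjusted p = 0.760), the total miRNA count (0.317), the DESeq2 Wald test (0.129) or no filter (0.141). The call was likewise lost without siAPE1 replicate 1 (adjusted p = 0.108), siSCR replicate 1 (0.106) or siSCR replicate 2 (0.116). miR-543, whose 3′ end is that of miR-495-3p, had 73.1, 73.3 and 58.7 scaled counts in siAPE1, against 100, 110 and 111 in siSCR (log2 fold change -0.64 ± 0.17, adjusted p = 8.58e-04). It lost the call with TMM (adjusted p = 0.142) and with DESeq2 size factors (adjusted p = 0.134).

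miR-494-3p moved the other way. It had 124, 119 and 103 scaled counts in siAPE1, against 54.1, 64.9 and 81.5 in siSCR. Each siAPE1 value was above each siSCR value, and the means were 115 ± 11.3 and 66.8 ± 13.8 (SD, n = 3 each). The log2 fold change was 0.81 ± 0.17 (adjusted p = 2.46e-05), and over all alternatives tried it lay between 0.41 and 1.18 with adjusted p-values of at most 0.0278. Among the 18 tested members no other level was higher in siAPE1 without overlap, where 7.24% of the tested panel was. Some untested members at background were also higher without overlap. The scaled background was itself higher in siAPE1 on average, so these are not read as a rise.

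miR-379-5p, miR-411-5p and miR-299-5p head the downstream group, with miR-411-5p 1.27 kb after miR-379-5p and 0.46 kb before miR-299-5p. Together with miR-485-3p they showed the smallest changes among the tested members. miR-379-5p, the first miRNA of the group, had 196, 178 and 213 scaled counts in siAPE1, against 222, 257 and 356 in siSCR. The groups were apart only narrowly, and the log2 fold change was -0.50 ± 0.17 (adjusted p = 0.00665). Its call was lost with TMM (adjusted p = 0.354), with DESeq2 size factors (adjusted p = 0.331) and without siSCR replicate 3, its highest library (-0.30, adjusted p = 0.117). miR-411-5p had 155, 128 and 143 scaled counts in siAPE1, against 103, 136.5 and 145 in siSCR. These groups overlapped and the log2 fold change of 0.15 ± 0.18 did not pass (adjusted p = 0.475), although with TMM it was 0.52 and passed (adjusted p = 0.00531), and with positive controls alone it was -0.26. miR-299-5p had 58.5, 75.4 and 102 scaled counts in siAPE1, against 86.0, 72.3 and 107 in siSCR (log2 fold change -0.17 ± 0.17, adjusted p = 0.396). Its groups overlapped throughout, and with TMM its log2 fold change was 0.19. It passed as lower with positive controls alone (-0.59, adjusted p = 0.00193), after background subtraction (-0.45, adjusted p = 0.0569), with the score table (-0.70, adjusted p = 0.00422) and without siAPE1 replicate 3 (-0.39, adjusted p = 0.0807).

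**Figure D3:**
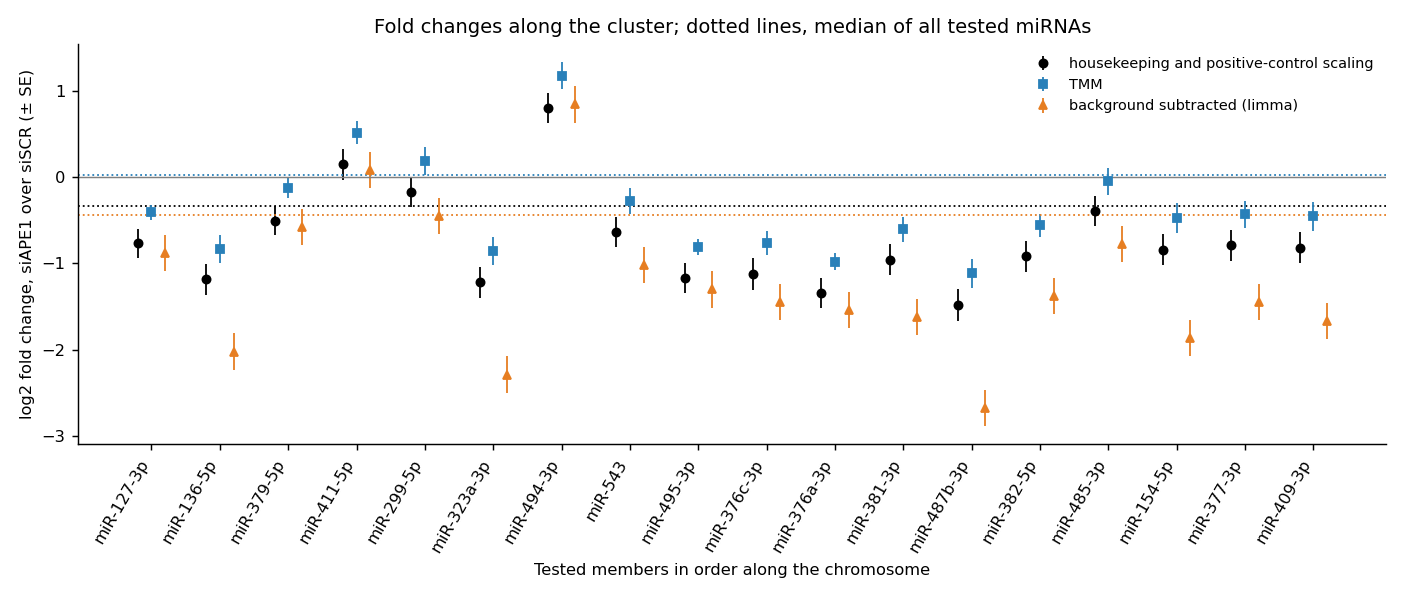
Log2 fold change of siAPE1 over siSCR (± SE) for the 18 tested members in chromosomal order under 3 treatments of the counts: housekeeping and positive-control scaling (black circles), TMM (blue squares) and subtraction of the negative-control mean (orange triangles). Dotted lines mark the median of all 152 tested miRNAs under each treatment. TMM moves all members up by a like amount, and subtraction enlarges the falls of the members near background, while miR-494-3p stays above 0 under all 3.

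As the plot of fold changes shows, position along the cluster and the size of the change were only weakly related. Over the 18 tested members, which share the same libraries, Spearman's rho between chromosomal order and log2 fold change was -0.20. For each siAPE1 library set against the mean of the siSCR libraries it was -0.06, -0.43 and -0.21. Between the siSCR level and the log2 fold change rho was -0.22. The sum of the scaled counts of the 18 members was 1563, 1578 and 1720 in the siAPE1 libraries and 2496, 2701 and 3087 in the siSCR libraries. The 5 members most abundant in siSCR made up 47.8%, 51.5% and 50.9% of that sum in siAPE1 and 56.8%, 58.3% and 57.8% in siSCR. They were ranked by siSCR level, so their smaller share in siAPE1 is no separate support. In siAPE1, miR-411-5p (mean 142 scaled counts) and miR-494-3p (115) stood above miR-376c-3p (93.6), which is among the 5. These sums include background and the 9 members that passed the filter through siSCR alone, and are given as a description.

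Ratios of neighbouring members within a library do not depend on the scaling. For each of the 17 pairs of tested members that follow each other, the log2 ratio of raw counts was compared between the groups by an exact two-sided permutation test. With 3 libraries against 3 this test gives no p below 0.1, and the smallest adjusted p was 0.17, so none of the pairs could pass. The groups did not overlap for 10 of the 17 pairs, and for 83 of all 153 pairs of tested members. Over all pairs of the 152 tested miRNAs the share without overlap was 63.4%, so a separated ratio was common on this panel. In 11 of the 17 pairs, 1 or both members were within the background limit in every siAPE1 library. The groups did not overlap for 3 of the other 6 pairs, namely miR-411-5p to miR-379-5p, miR-543 to miR-494-3p and miR-495-3p to miR-543.

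**Figure D4:**
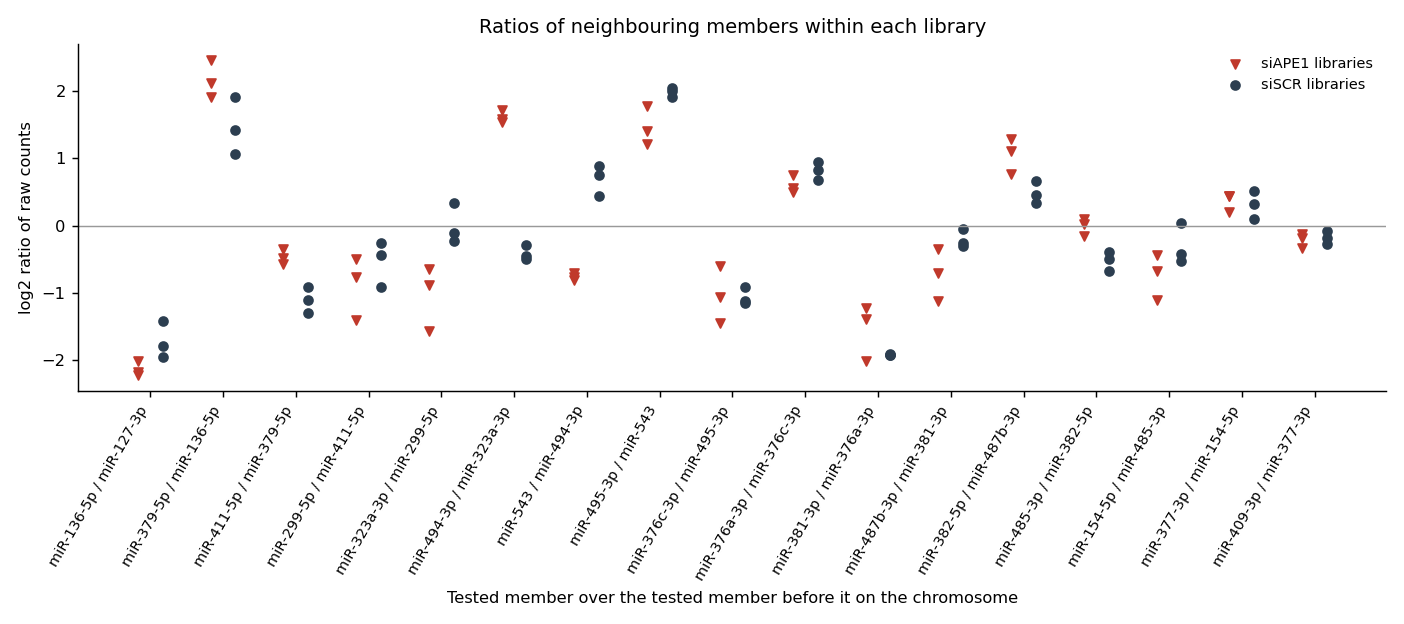
Log2 ratio of the raw counts of each tested member to the tested member before it on the chromosome, in the 3 siAPE1 libraries (red triangles, left) and the 3 siSCR libraries (dark circles, right). The widest separations are at miR-494-3p, which stands above miR-323a-3p in siAPE1 and below it in siSCR, and in the opposite direction at the next pair.

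In raw counts, the sharpest steps in the plot of neighbour ratios flank miR-494-3p. Its log2 ratio to miR-323a-3p, 3.90 kb before it, was 1.72, 1.55 and 1.58 in the siAPE1 libraries, against -0.44, -0.50 and -0.29 in the siSCR libraries. miR-494-3p was thus the more counted of the pair in siAPE1 and the less counted in siSCR, a difference of 2.03 ± 0.08 (SE, exact permutation p = 0.1). As miR-323a-3p was within the background limit in every siAPE1 library, this compares miR-494-3p with background there, and after subtraction of background the difference was 4.94. miR-543, 2.35 kb further on, had a log2 ratio to miR-494-3p of -0.77, -0.70 and -0.81 in siAPE1, against 0.89, 0.76 and 0.44 in siSCR (difference -1.46 ± 0.14, exact permutation p = 0.1). After subtraction of background this difference was -2.21, and some pairs without miR-494-3p then differed by more, such as miR-382-5p to miR-487b-3p (3.75). The ratios of miR-494-3p to its 17 partners did not overlap between the groups for any partner, and those of miR-411-5p did not for 16 of 17. Of the 18 tested members, 9 passed the filter through siSCR alone, and 63.4% of ratios over the tested panel did not overlap. These counts are therefore no separate support.

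A second step lies between miR-379-5p and miR-411-5p, which are 1.27 kb apart and share bases 3 to 8. The log2 ratio of miR-411-5p to miR-379-5p was -0.35, -0.48 and -0.57 in siAPE1, against -1.11, -0.91 and -1.30 in siSCR. miR-379-5p was the more counted of the pair in every library, but by less in siAPE1 (difference 0.64 ± 0.13, exact permutation p = 0.1). Their mature sequences, both of 21 bases, differ at 7 positions, counted from 1 at the 5′ end of miR-411-5p: A2G, C9U, G10A, A12G, U13G, G15A and C20G.

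Raw ratios were also apart for miR-136-5p to miR-127-3p, miR-379-5p to miR-136-5p, miR-323a-3p to miR-299-5p, miR-487b-3p to miR-381-3p, miR-382-5p to miR-487b-3p and miR-485-3p to miR-382-5p. Each of these pairs holds a member that was within the background limit in every siAPE1 library. For most other neighbours the raw ratios of the groups overlapped. The log2 ratio of miR-376c-3p to miR-495-3p, 5.93 kb apart, was -1.44, -0.59 and -1.06 in siAPE1, against -1.13, -0.91 and -1.15 in siSCR (difference 0.03 ± 0.26, exact permutation p = 0.8). That of miR-376a-3p to miR-376c-3p differed by -0.21 ± 0.11 (exact permutation p = 0.2), with overlapping groups. At the far end of the group, miR-377-3p and miR-154-5p differed by 0.05 ± 0.15 in their log2 ratio and miR-409-3p and miR-377-3p by -0.03 ± 0.09. For these last pairs the siAPE1 counts of both members were within the background limit, and after subtraction the differences were 1.53 and -0.72, so their ratios do not show an equal change. miR-495-3p and miR-543, with their common 3′ end, are 1.77 kb apart. The log2 ratio of miR-495-3p to miR-543 was 1.40, 1.22 and 1.78 in siAPE1, against 2.01, 1.92 and 2.05 in siSCR (difference -0.52 ± 0.17). The groups were apart, but after subtraction of background the difference was -0.14.

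Both arms had separate probes on the panel for 12 precursors with a tested arm, counting miR-376a-2, whose 3p arm is also made from a further precursor. miR-411-3p, the other arm of miR-411-5p, shares a probe with miR-758-3p and was left out. That probe exceeded the limit in no library. In each of the 12 only 1 arm was tested, the 3p arm for 10 of them and the 5p arm for miR-299 and miR-382. The other arm stayed within the background limit in all 6 libraries, with 10 to 48 raw counts. By hairpin side, 6 of 31 probes from the 5p side and 12 of 41 from the 3p side were tested. From the 5p side 4 were called lower, and miR-411-5p and miR-299-5p were not called. From the 3p side 11 were called lower and miR-494-3p was called higher. Over the tested panel 50.7% were called lower and 9.87% higher. Of these tested members, 3 from the 5p side and 6 from the 3p side passed the filter through siSCR alone.

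**Figure D5:**
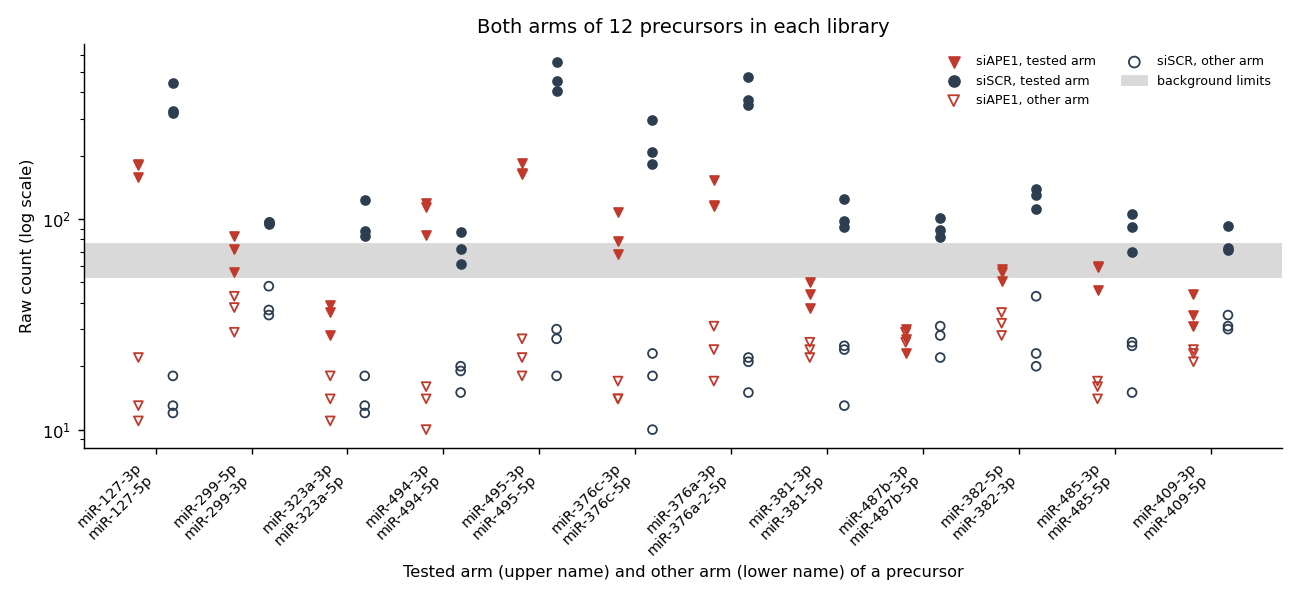
Raw counts (log axis) of the tested arm (filled) and the other arm (open) of 12 precursors in the siAPE1 libraries (red triangles, left) and the siSCR libraries (dark circles, right). The grey band spans the background limits of the 6 libraries; every open symbol lies below it.

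The plot of both arms shows that the change was seen in the tested arm, while the other arm stayed at background. The log2 ratio of the tested to the other arm was lower in siAPE1 without overlap for 9 precursors and higher for miR-494, and it overlapped for miR-299 and miR-485 (exact permutation test, smallest adjusted p 0.12). Among the 9, the tested arms of miR-323a, miR-381, miR-487b, miR-382 and miR-409 passed the filter through siSCR alone, so their lower ratios are no separate support. Over all pairs of tested miRNAs of the panel, 63.4% of ratios did not overlap. Those pairs hold tested miRNAs only, whereas each arm ratio divides a tested arm by an untested one, so the sets are unlike. For miR-495 this log2 ratio was 2.78, 2.89 and 3.20 in siAPE1, against 4.07, 4.21 and 4.49 in siSCR. For miR-494 it was 2.89, 3.51 and 2.58 in siAPE1, against 1.68, 2.54 and 1.85 in siSCR. For miR-487b both arms were alike in siAPE1, with log2 ratios of -0.10, 0.21 and -0.33, whereas in siSCR the 3p arm stood above the 5p arm with 1.55, 1.70 and 2.02. Since the other arms were at background, these ratios measure the tested arm against background and not a change in the use of the arms.

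The 72 members carry 66 distinct seeds, and the 18 tested members carry 18. No pair of tested members had a seed in common. Among the 706 panel probes matched to RefSeq, no probe outside the cluster shared its seed with a tested member, and 3 tested members shared theirs with an untested member of the cluster. miR-376a-3p and miR-376b-3p have the seed UCAUAGA, and the first 21 bases differ by C19U, counted from the 5′ end of miR-376a-3p. miR-376b-3p had 38.6, 23.0 and 23.2 scaled counts in siAPE1, against 23.9, 17.9 and 23.8 in siSCR, all at background, although its gene lies between the 2 genes of miR-376a-3p. How far the probe of one counts the other was not tested.

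In the other seed pairs the partner was likewise at background. miR-381-3p averaged 49.0 ± 11.0 scaled counts in siAPE1 and 94.7 ± 8.73 in siSCR, while miR-300, with the same seed AUACAAG, averaged 17.4 ± 3.92 and 14.2 ± 3.55 (SD, n = 3 each). miR-485-3p averaged 61.1 ± 12.6 in siAPE1 and 79.9 ± 1.39 in siSCR, while miR-539-3p, with the seed UCAUACA, averaged 22.0 ± 6.41 and 16.0 ± 1.54. miR-376a-3p and miR-376c-3p, both of which fell, differ at the seed by U2A and outside it by A14U, positions counted from the 5′ end of miR-376a-3p. miR-487b-3p and miR-487a-3p differ by G5A, U13A and C20G, counted from the 5′ end of miR-487b-3p. miR-487a-3p averaged 44.7 ± 6.82 scaled counts in siAPE1 and 46.8 ± 2.78 in siSCR and was above the limit in no library.

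The GC content of the tested members had a median of 45.5% (range 34.8% to 59.1%), the same median as that of the untested members and of all tested miRNAs of the panel. The first base was A in 7 of the tested members, U in 7, G in 3 and C in 1.

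The 4 members above the limit in a single library were miR-337-5p, miR-337-3p and miR-432-5p of the upstream group, each in 1 siSCR library, and miR-496 of the downstream group, in 1 siAPE1 library. miR-337-5p had 38.6, 37.7 and 29.4 scaled counts in siAPE1, against 48.7, 50.7 and 69.0 in siSCR. Its groups did not overlap, but it was not tested because only 1 library exceeded its limit. miR-337-3p, the other arm, averaged 49.1 ± 20.9 scaled counts in siAPE1 and 49.5 ± 11.4 in siSCR. miR-432-5p averaged 41.0 ± 3.11 in siAPE1 and 50.7 ± 11.1 in siSCR, and miR-496 averaged 61.9 ± 7.05 in siAPE1 and 49.5 ± 15.0 in siSCR, with overlapping groups for each.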

How the data were processed

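The files of the 6 libraries hold counts, deposited as the nCounter digital analyzer gave them and without correction. A series table deposited beside them holds a score for each probe. Within a probe the score followed the raw count linearly, with 1 slope and 1 offset in every library, so it carries no correction between libraries and served only as an alternative. Per the study's methods, the authors normalised with NanoStringDiff, from the control probes and the housekeeping genes. That package was not used here.

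Each library's scaling factor was the slope of its 6 positive controls times the median ratio of its 5 housekeeping mRNAs. It was 0.958, 0.955 and 0.817 in siAPE1 and 1.13, 1.34 and 0.884 in siSCR. Counts were tested with edgeR 4.0.16 in R 4.3.3 (robust quasi-likelihood, two-sided, scaling as offsets), with Benjamini-Hochberg adjustment over 152 miRNAs and a threshold of 0.1, the study's limit. The fit drew nearly all miRNAs to 1 common spread (members' SE 0.17 to 0.19), so a p-value rests more on that than on the member's own 3 and 3 libraries. The labels name no batch and do not say whether replicates were separate cultures, while the study's text calls them biological. Hence p-values reflect the spread among these 6 samples alone. Ratios were compared by exact permutation tests.

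Sequences, coordinates and gene positions came from RefSeq (GRCh38.p14). All tested members were named, with their other arms and seed partners, and members above the limit in 1 library. The members and lists were chosen with earlier results of these data known. Alternatives covered the scaling (TMM, DESeq2 1.42.0 size factors, positive controls, total count), the filter, the DESeq2 Wald test, background subtraction and the score table (both limma 3.58.1 on log2(value + 10)), a replicate block and leaving out each library. Same-numbered libraries were not paired: their deviations from the group means correlated at -0.59, -0.01 and -0.49. The highest values among differently numbered libraries were 0.61 (siAPE1 replicate 1 with siSCR replicate 3) and 0.47 (siAPE1 replicate 3 with siSCR replicate 1). What these reflect was not tested.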

Additional observations from a re-analysis of the deposited data

How the results depend on the processing

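Over the tested members the median log2 fold change stayed below 0 except with no filter, where it was 0.15 over all 72 members (0.22 over the panel) and 5 members were called higher: miR-494-3p and miR-380-3p, miR-539-5p, miR-544a and miR-665, all 4 of which were near background. The median was -0.46 with TMM, -0.47 with DESeq2 size factors, -1.24 with positive controls alone, -0.61 with the total miRNA count, -0.63 for members above the limit in all 6 libraries, -0.49 with a limit that leaves out the highest negative control, -1.41 after background subtraction and -1.69 with the score table. Without each library in turn it ran from -0.90 to -0.73. The panel median was 0.02 with TMM and -0.75 with positive controls alone, so the scaling moves the cluster and the panel together. Members called lower numbered 4 of 6 with the limit required in all 6 libraries (panel share 44.7%). They numbered 15 of 72 with no filter (9.27%) and 16 of 30 without the highest negative control (27.7%). Under every other alternative 12 to 16 of 18 were lower, where the panel share ran from 30.3% (TMM) to 84.2% (positive controls alone). With TMM, DESeq2 size factors or the total miRNA count 2 were called higher (miR-494-3p and miR-411-5p), where 30.9%, 30.9% and 21.1% of the panel was. With no filter 9.77% of the panel was called higher. With the replicate number as a block, 15 members were lower and 1 higher with a median of -0.83, where 63.2% of the panel was lower and 13.2% higher.

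miR-299-5p had a log2 fold change of -0.59 with positive controls alone, -0.45 after background subtraction and -0.70 with the score table, each past the threshold, but 0.19 with TMM, 0.18 with DESeq2 size factors and 0.046 with the total count, and without each library in turn it lay between -0.39 and 0.0070. miR-411-5p had -0.26 with positive controls alone and -0.14 with the score table. After background subtraction the log2 ratio of miR-376c-3p to miR-495-3p differed by -0.25, that of miR-381-3p to miR-376a-3p by -0.54, that of miR-299-5p to miR-299-3p by 0.61, that of miR-377-3p to miR-154-5p by 1.53 and that of miR-409-3p to miR-377-3p by -0.72. Without each library in turn, the log2 ratio of miR-376c-3p to miR-495-3p differed by -0.19 to 0.24, that of miR-377-3p to miR-154-5p by -0.060 to 0.15 and that of miR-409-3p to miR-377-3p by -0.079 to 0.029. Spearman's rho with position was 0.081 over all 72 members without a filter. The causes of these changes were not tested. Without a filter miR-337-5p was also called lower. The 54 untested members lay near background, which limits what their counts can show.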
